A study of Homo sapiens with 4 samples.

Results

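The 43 genes described here encode cytosolic chaperones, the co-chaperones that work with them, a few of their mitochondrial relatives and the heat shock factors that control their transcription. They were picked by symbol from a list of these families, drawn up with earlier results of these data known, and all 43 were found among the 25283 rows of the deposited gene table. The list was split by role into 8 groups, which were 9 members of the HSP70 family, 5 of HSP90 and its co-chaperones, 5 small heat shock proteins, 8 DNAJ proteins, 3 BAG proteins, 7 subunits of the CCT chaperonin, 4 mitochondrial chaperones and 2 heat shock factors.

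Chaperones bind unfolded or partly folded proteins and keep them from clumping. HSP70 proteins do this in cycles of ATP use that are started by DNAJ proteins and reset by exchange factors such as the BAG proteins, while HSP90 finishes the folding of kinases and hormone receptors and the ring-shaped CCT chaperonin folds actin and tubulin. Heat shock factor 1 (HSF1) is held inactive by chaperones in unstressed cells; when unfolded proteins accumulate it is freed, binds heat shock elements in promoters and switches on the inducible members, above all HSPA1A and HSPA1B, and neurons are known for a weak form of this response.

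U1 snRNA, which pairs with 5′ splice sites and also keeps transcripts from being cut and polyadenylated too early, was overexpressed in cells grown out of H1, a line of human embryonic stem cells that is widely used. The U1_OE group held 2 libraries of cells given a lentiviral U1 snRNA overexpression vector, and the control group held 2 libraries whose genotype label is wild type with an empty vector. Both groups were passed through neural induction, neuron differentiation and neuron maturation media, and RNA was taken 36 h after the vector. In the labels the control cells have the same treatment text as the others, so the groups were taken from titles and genotype labels, and the level of U1 snRNA itself was not analysed here.

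The libraries held 16713505 and 19057423 estimated counts in U1_OE and 17061796 and 17636307 in control, and 17317 genes entered the test. U1_OE replicate 1 stood apart from the rest, with correlations of log2 CPM (a gene's counts scaled to the library's total) of 0.9334 to 0.9417 with the other libraries, against a highest value of 0.9537 among all pairs. The labels call the cells neurons, and the data went against that name in part. Of 14 pan-neuronal markers 12 had a row, TUBB3 alone reached 10 CPM in every library, and the young-neuron marker DCX was at 0 and 0.169 CPM in U1_OE and at 0 and 0.102 CPM in control. All 12 mesenchymal and fibroblast markers reached 10 CPM in every library, with summed levels of 92770.2 and 84649 CPM in U1_OE and 76834 and 87961 CPM in control. The collagens COL1A1 and COL1A2 and fibronectin FN1 make up most of these sums. Over the 12 genes the median log2 fold change was 0.42. Both U1_OE libraries were above both controls in 7, against 19.7% of all genes and 25% of those at 10 CPM or more. In 0 both were below, against 22.1% of all genes. DESeq2, which called 1.08% of all genes, called POSTN, periostin, with 273 and 229.7 CPM in U1_OE and 72.4 and 142 CPM in control (adjusted p = 0.00938). Summed pan-neuronal markers had 336 and 371 CPM in U1_OE and 191 and 122 CPM in control. TUBB3 (DESeq2, adjusted p = 0.00134) and GAP43 (47.0 and 11.5 CPM in U1_OE and 3.29 and 1.29 CPM in control; DESeq2, adjusted p = 4.63e-05) carry that sum, while SYP and RBFOX3 had both U1_OE libraries below both controls. The muscle markers, led by TAGLN and with the smooth muscle myosin MYH11 at or below 0.465 CPM everywhere, summed to 325 and 528 CPM in U1_OE and 224 and 182 CPM in control. Neural progenitor markers summed to 49.3 and 57.8 CPM in U1_OE and 48.1 and 45.2 CPM in control, a sum in which NES had both U1_OE libraries above both controls and PAX6, SOX2 and FABP7 had both below. Astrocyte markers summed to 27.3 and 22.6 CPM in U1_OE and 8.58 and 19.7 CPM in control. SLC1A3 carries that sum, with 25.5 and 20.4 CPM in U1_OE and 6.84 and 18.8 CPM in control. GFAP reached at most 1.73 CPM in any library. The part of these markers in the results below was not tested. The RNA came from bulk cultures, so a different number of cells of a type and a different amount of RNA per cell cannot be told apart.

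The comparison of U1_OE with control asks whether more U1 snRNA moves the transcripts of the chaperone network. Most members had somewhat higher values in U1_OE, by a small amount, and no single member passed the test. By the quasi-likelihood test of edgeR, adjusted over all tested genes by the Benjamini-Hochberg method, 0 of the 43 members had an adjusted p below 0.05, as did 0% of all 17317 genes. DESeq2 called 0 members, against 1.08% of 17440 genes, limma-voom called 0 members, against 0% of genes, and edgeR's likelihood ratio test called 0 members, against 1.88% of genes. The lowest adjusted p of a member by edgeR's quasi-likelihood test was 0.489, for CCT5.

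Without adjustment, 9 members had p below 0.05 with the higher level in U1_OE, against 4.36% of all genes, and 0 had it with the lower level, against 4.72% of all genes. The 9 compare with 9.08% of all genes in either direction. They were HSPH1, STIP1, CRYAB, DNAJA1, DNAJB1, CCT3, CCT5, CCT7 and HSPD1. Of the 43 members, 40 had a positive log2 fold change of U1_OE over control, against 49.3% of all genes, and the negative ones were HSPA13, PTGES3 and BAG1. In 23 members both U1_OE libraries were above both control libraries, against 19.7% of all genes, and in 0 members both were below, against 22.1%. These counts use TMM scaling. With library size as the only scaling 19 members had both U1_OE libraries on top, and HSPA1B, DNAJA2, DNAJB5 and TCP1 overlapped. The share of all genes under that scaling was not taken. The median log2 fold change of the members was 0.22, and that of all tested genes was -0.01.

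The members are well expressed, so the same figures were taken over the 8666 genes with a mean of at least 10 CPM. Of those, 55.6% had a positive log2 fold change, 25% had both U1_OE libraries above both control libraries, 5.9% had an unadjusted p below 0.05 with the higher level in U1_OE, and the median log2 fold change was 0.04. Of the 37 members at that level, 34 had a positive log2 fold change and 21 had both U1_OE libraries on top.

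**Figure D1:**
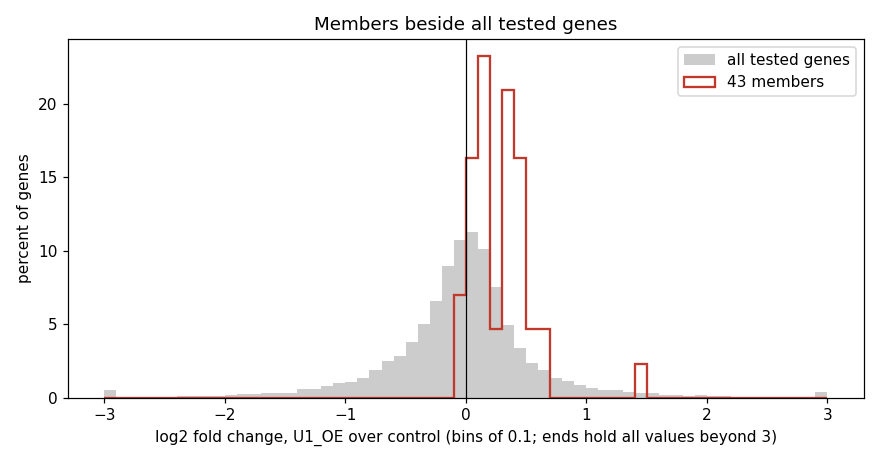
Percent of genes (vertical axis) in bins of the log2 fold change of U1_OE over control (horizontal axis), for the 43 members as a red outline and for the 17317 tested genes in grey. The members lie mostly to the right of 0, with a median of 0.22 and 1 member, HSPB7 at 1.45, far from the others.

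Summed over all 43 members, TMM-scaled CPM came to 7043 and 7372 in U1_OE and to 6407 and 5617 in control. Both U1_OE sums were above both control sums, and the ratio of the means was 1.20. The members took 0.704% and 0.737% of all counts in U1_OE and 0.641% and 0.562% in control, and the median member stood at 98.6 and 117 CPM in U1_OE and 97.8 and 83.9 CPM in control. Control replicate 1 was the closer control to the U1_OE libraries in both measures, and without it the median log2 fold change of the members was 0.41.

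**Figure D2:**
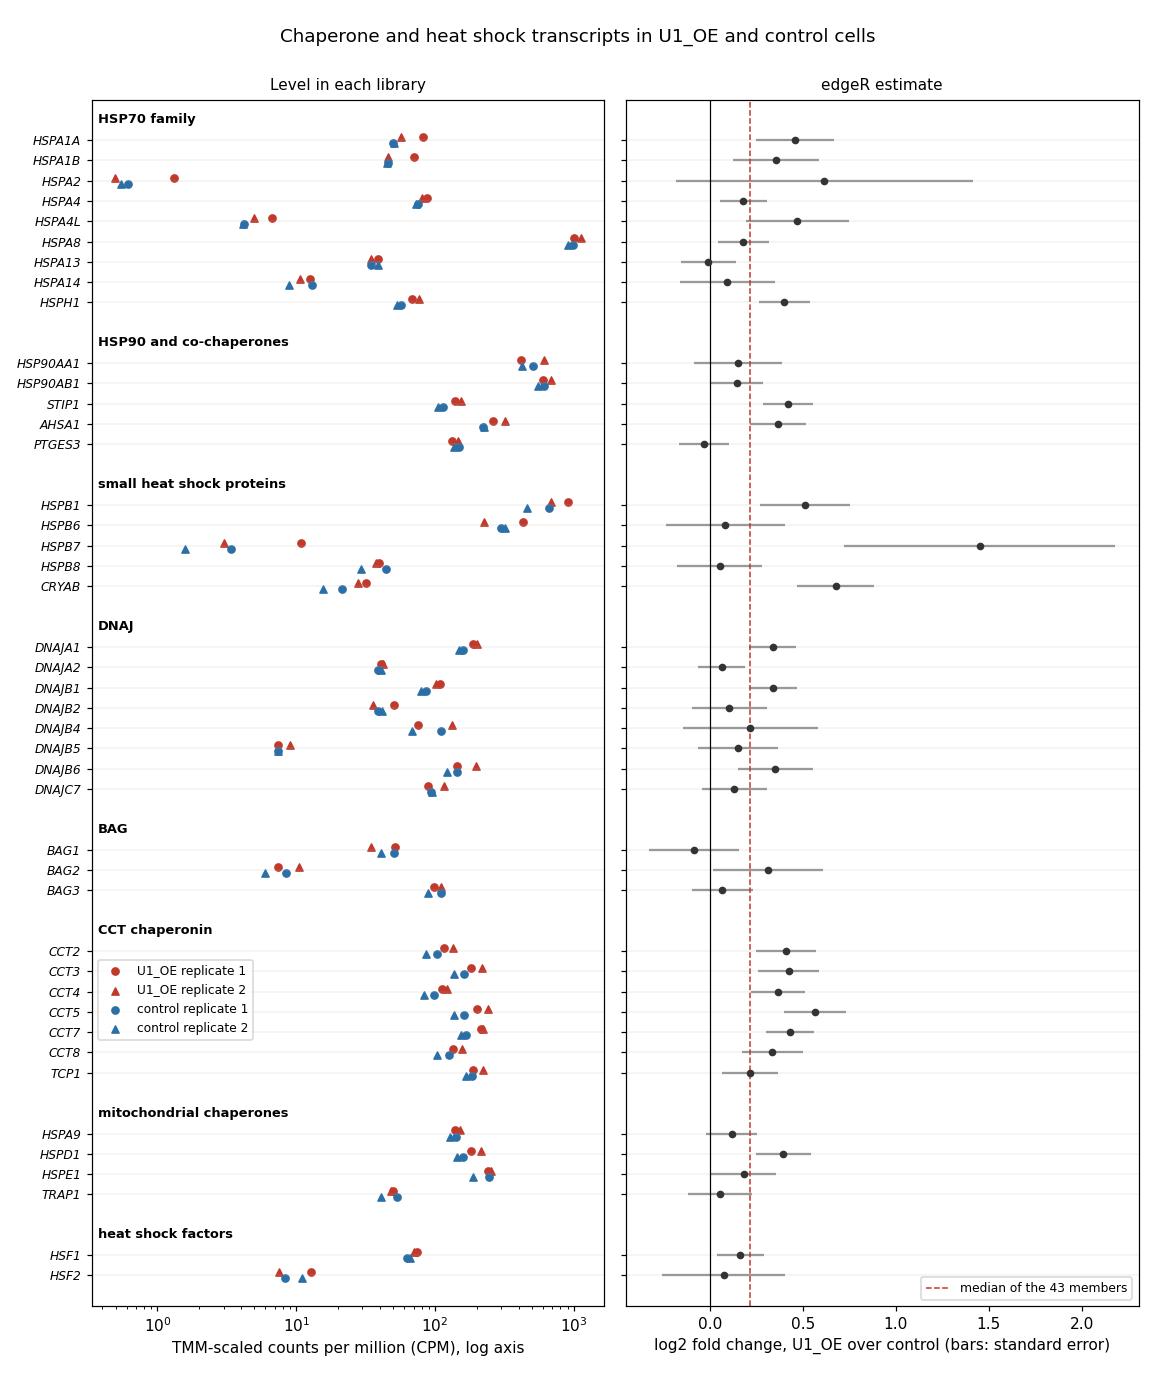
Left, the level of each member in each library as TMM-scaled CPM on a log axis, red for U1_OE and blue for control, circles for replicate 1 and triangles for replicate 2. Right, the log2 fold change of U1_OE over control with its standard error; 40 of the 43 points lie right of 0, the dashed line marks the median of 0.22, and many bars cross 0.

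A heat shock element is built of GAA units in alternating orientation, so promoters of the members were searched for it. RefSeq promoter windows on GRCh38.p14, from 250 bases before to 50 after each start, were matched for 40 of the 43 members. The form with 3 units, GAANNTTCNNGAA or TTCNNGAANNTTC, which between them cover both strands, was in 6 members or 15%, against 0.608% of 27305 gene symbols. The form with 2 units, GAANNTTC or TTCNNGAA, which every 3-unit match also contains, was in 20 members or 50%, against 16.2% of symbols. A match describes these letters and is not a measured binding site.

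The 3-unit matches are shown with the element in capitals, on the strand of the gene. In HSPD1 overlapping matches were joined, so its capitals run longer than the 3-unit form. Only exact letters within the window were searched, so a member without a match is not shown to lack an element. The distances given after the sequences run from the RefSeq start to the first base of the element.
HSPD1: gcattTTCTGGAAAGTTCTGGAAccgag
HSP90AB1, upper: ggagcaggTTCTGGAAGATTCatgggctc
HSP90AB1, lower: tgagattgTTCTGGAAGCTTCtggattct
DNAJB6: agagccgaGAACCTTCGCGAAggtggggc
DNAJA1: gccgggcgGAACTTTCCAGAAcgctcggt
HSPA8, upper: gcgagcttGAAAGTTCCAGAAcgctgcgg
HSPA8, lower: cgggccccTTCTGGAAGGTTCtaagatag
HSP90AA1: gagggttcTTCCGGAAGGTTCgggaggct
The HSPD1 stretch lies at chr2:197500063-197500090 on the minus strand, with the element at -245 from the HSPD1 start at 197499840, and it lies downstream of the other RefSeq start of that gene, at 197500274. The HSP90AB1 stretches lie at chr6:44247770-44247798 and chr6:44247823-44247851 on the plus strand, at -165 and -112. That of DNAJB6 lies at chr7:157336865-157336893 on the plus strand, at -131, and that of DNAJA1 at chr9:33025268-33025296 on the plus strand, at 4, just inside the transcript. The HSPA8 stretches lie at chr11:123062346-123062374 and chr11:123062171-123062199 on the minus strand, at -230 and -55, and that of HSP90AA1 lies at chr14:102087112-102087140 on the minus strand, at -88. In the comparison of U1_OE with control these 6 genes had log2 fold changes of 0.40 for HSPD1, 0.14 for HSP90AB1, 0.35 for DNAJB6, 0.34 for DNAJA1, 0.18 for HSPA8 and 0.15 for HSP90AA1, all adjusted p by edgeR's quasi-likelihood test at or above 0.542.

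The HSP70 family came first by role, and 8 of its 9 members had positive log2 fold changes, with a median of 0.35. In 6 of the 9 both U1_OE libraries were above both control libraries, against 19.7% of all genes and 25% of those at 10 CPM or more, and 0 were called. HSPA1A and HSPA1B are the stress-inducible HSP70 genes, which lie beside each other on chromosome 6 and encode almost the same protein. Their promoters hold the 2-unit element and a TATAAA box, which was searched as given on the gene's strand only and was in 6 matched members or 15%, against 8.99% of symbols. The stretch from just before that element to the box is shown because the pair is nearly identical there, with both motifs in capitals.
HSPA1A: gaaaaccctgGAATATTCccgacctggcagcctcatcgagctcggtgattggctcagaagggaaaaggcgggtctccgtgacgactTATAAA
HSPA1B: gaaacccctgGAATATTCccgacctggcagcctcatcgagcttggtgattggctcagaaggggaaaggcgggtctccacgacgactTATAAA
These 92 bases lie at chr6:31815427-31815518 for HSPA1A and at chr6:31827623-31827714 for HSPA1B, on the plus strand of GRCh38.p14, and differ at 5 positions. From the RefSeq start, the element begins at -106 and the box at -30 in HSPA1A, and at -105 and -29 in HSPA1B. GENCODE v29 opens HSPA1A (chromosome 6, 31815464 to 31817946) inside the printed stretch, so the annotations place its start differently, and HSPA1B at 31827735.

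HSPA1A had 82.1 and 56.7 CPM in U1_OE, against 49.9 and 51.0 CPM in control. HSPA1B had 70.4 and 45.9 CPM in U1_OE, against 45.8 and 45.2 CPM in control. For both genes U1_OE replicate 1 was the high library, and U1_OE replicate 2 lay near the controls, for HSPA1B only just above them. HSPA1A gave a log2 fold change of 0.46 ± 0.21 (SE; edgeR's quasi-likelihood test, adjusted p = 0.590), which was 0.18 without U1_OE replicate 1. HSPA1B gave 0.35 ± 0.23 (SE; edgeR, adjusted p = 0.696), and 0.02 without U1_OE replicate 1. Of all stretches of 31 bases in HSPA1A, 73.6% also occur in HSPA1B, so reads from the pair cannot be fully assigned and their split depends on the counting. The sum of the pair, 153 and 103 CPM in U1_OE and 95.7 and 96.1 CPM in control, does not depend on the split between them, and U1_OE replicate 1 was again the high library.

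HSPA8 is the constitutive HSP70 of the cytosol. It had 1010.0 and 1125 CPM in U1_OE, against 983 and 901 CPM in control, so the groups did not overlap but U1_OE replicate 1 and control replicate 1 were close. Its log2 fold change was 0.18 ± 0.14 (SE; edgeR's quasi-likelihood test, adjusted p = 0.740). Per kilobase of the principal transcript, HSPA1A and HSPA1B together came to 14.9% and 8.98% of the level of HSPA8 in U1_OE and to 9.58% and 10.5% in control. U1_OE replicate 2 had the lowest share of all and U1_OE replicate 1 the highest, so the groups overlapped. The stress-inducible pair was at 1.18 and 1.25 HSPA1A to HSPA1B per kilobase in U1_OE and 1.11 and 1.15 in control.

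HSPH1, the cytosolic HSP110 that resets HSP70 by nucleotide exchange, had the smallest unadjusted p of this family. It had 67.7 and 77.2 CPM in U1_OE, against 56.4 and 53.3 CPM in control, without overlap. Its log2 fold change was 0.40 ± 0.14 (SE), with adjusted p = 0.516 by edgeR's quasi-likelihood test, and it lay between 0.30 and 0.50 with each library left out. HSPA4, another exchange factor of the HSP110 kind, had 87.2 and 80.5 CPM in U1_OE and 75.2 and 72.9 CPM in control, and its relative HSPA4L had 6.63 and 4.96 CPM in U1_OE and 4.22 and 4.14 CPM in control. HSPA13, a microsome-associated HSP70 relative, had 39.0 and 34.4 CPM in U1_OE and 34.7 and 39.1 CPM in control, with a log2 fold change of -0.01. HSPA14, found with ribosomes, had 12.6 and 10.6 CPM in U1_OE and 12.9 and 8.92 CPM in control. HSPA2, best known from the testis, was the lowest member per kilobase and had 1.31 and 0.495 CPM in U1_OE and 0.617 and 0.550 CPM in control. The last 3 genes overlapped between the groups.

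In 2 of the 5 genes of the HSP90 group, the co-chaperones STIP1 and AHSA1, both U1_OE libraries were above both controls. That compares with 19.7% of all genes and 25% of those at 10 CPM or more. Both HSP90 chaperones and the co-chaperone PTGES3 overlapped between the groups of libraries. HSP90AA1, the stress-inducible HSP90, had 414 and 614 CPM in U1_OE, against 507 and 419.9 CPM in control. HSP90AB1, the constitutive form, had 603 and 682 CPM in U1_OE, against 612 and 551 CPM in control. U1_OE replicate 2 was highest and U1_OE replicate 1 was inside or below the control range for both genes, so the groups overlapped. The log2 fold changes were 0.15 ± 0.23 for HSP90AA1 (SE; edgeR's quasi-likelihood test, adjusted p = 0.885) and 0.14 ± 0.14 for HSP90AB1 (SE; edgeR, adjusted p = 0.798). The value of HSP90AA1 turned to -0.16 without U1_OE replicate 2. Per kilobase, HSP90AA1 stood at 0.544 and 0.712 of the level of HSP90AB1 in U1_OE and at 0.655 and 0.603 in control, so the inducible form did not outweigh the constitutive one in any library.

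STIP1, the adaptor that hands proteins from HSP70 to HSP90, had 139 and 155 CPM in U1_OE, against 113 and 106 CPM in control. The groups did not overlap, and the log2 fold change was 0.42 ± 0.14 (SE), with adjusted p = 0.506 by edgeR's quasi-likelihood test. AHSA1, which speeds up the ATPase of HSP90, had 260.0 and 317 CPM in U1_OE, against 221 and 226 CPM in control, a log2 fold change of 0.37 ± 0.15 (SE; edgeR, adjusted p = 0.566). PTGES3, the p23 protein that slows the same ATPase, had 132 and 146 CPM in U1_OE and 148 and 137 CPM in control, a log2 fold change of -0.03. The summed level of the 5 genes was 1548 and 1915 CPM in U1_OE and 1601 and 1439 CPM in control, with overlap.

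The small heat shock proteins hold unfolded proteins without using ATP. All 5 had positive log2 fold changes, with a median of 0.51. In 2 of them both U1_OE libraries were above both controls, against 19.7% of all genes and 25% of those at 10 CPM or more. HSPB1, or HSP27, had 903 and 688 CPM in U1_OE, against 657 and 458 CPM in control. The groups did not overlap, but U1_OE replicate 2 and control replicate 1 were close, and the log2 fold change was 0.51 ± 0.24 (SE; edgeR's quasi-likelihood test, adjusted p = 0.603). CRYAB, alpha-B crystallin, had 31.6 and 27.8 CPM in U1_OE, against 21.4 and 15.7 CPM in control. Both U1_OE libraries were above both controls, with a log2 fold change of 0.68 ± 0.21 (SE), adjusted p = 0.492 by edgeR's quasi-likelihood test, and a range of 0.47 to 0.94 with each library left out. HSPB2, whose exons overlap those of CRYAB on the other strand, was at or below 0.653 CPM in every library.

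HSPB6, abundant in muscle, had 427 and 224 CPM in U1_OE and 297 and 317 CPM in control, with the U1_OE libraries on either side of the controls. HSPB7, the cardiovascular member, had 10.8 and 2.99 CPM in U1_OE and 3.40 and 1.58 CPM in control. Its log2 fold change of 1.45 ± 0.73 (SE; edgeR's quasi-likelihood test, adjusted p = 0.624) was the highest of all 43 members and was 0.26 without U1_OE replicate 1. HSPB8, the partner of BAG3, had 39.3 and 37.2 CPM in U1_OE and 44.4 and 29.4 CPM in control. The summed level of the group was 1412 and 980.02 CPM in U1_OE and 1024 and 822 CPM in control, with overlap. HSPB1 was 35.2 and 30.5 times as high as CRYAB per kilobase in U1_OE and 37.8 and 36.0 times in control.

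DNAJ proteins bring substrates to HSP70 and start its ATPase. All 8 had positive log2 fold changes, with a median of 0.19. In 4 of them both U1_OE libraries were above both controls, against 19.7% of all genes and 25% of those at 10 CPM or more. DNAJB1, the main stress-inducible partner of HSP70, had 108 and 102 CPM in U1_OE, against 86.2 and 79.5 CPM in control. DNAJA1, a farnesylated partner of HSP70, had 189 and 200.1 CPM in U1_OE, against 159 and 149 CPM in control. In both genes the replicates of a group lay close together and the groups were apart. The log2 fold change was 0.34 ± 0.13 (SE) for each, with adjusted p = 0.544 for both by edgeR's quasi-likelihood test.

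Of the other DNAJ genes, DNAJA2, a relative of DNAJA1, was nearly level, with 40.9 and 42.1 CPM in U1_OE and 38.8 and 40.6 CPM in control. DNAJB5, a relative of DNAJB1, had 7.37 and 8.98 CPM in U1_OE and 7.37 and 7.34 CPM in control, where the lower U1_OE library was level with the higher control. DNAJB6, which keeps polyglutamine proteins from aggregating, had 144 and 196 CPM in U1_OE and 144 and 122 CPM in control, a log2 fold change of 0.35 ± 0.20 (SE; edgeR's quasi-likelihood test, adjusted p = 0.674). That value was 0.11 without U1_OE replicate 2. DNAJB6, DNAJB2, DNAJB4 and DNAJC7 overlapped between the groups. DNAJB2, known from neurons, had 50.6 and 36.0 CPM in U1_OE and 38.8 and 41.8 CPM in control. DNAJB4 had the largest standard error of the group, 0.36 on the log2 scale, with 75.1 and 132 CPM in U1_OE and 111 and 67.9 CPM in control. DNAJC7, which binds HSP70 and HSP90, had 89.0 and 117 CPM in U1_OE and 93.1 and 94.5 CPM in control.

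The BAG proteins, which release ADP and substrate from HSP70, did not differ beyond the spread of the replicates. BAG3, a target of HSF1 that links HSP70 to selective autophagy, had 98.6 and 110.5 CPM in U1_OE, against 111 and 89.0 CPM in control, a log2 fold change of 0.07 ± 0.16 (SE; edgeR's quasi-likelihood test, adjusted p = 0.934). BAG2, an inhibitor of the ubiquitin ligase CHIP, had 7.42 and 10.4 CPM in U1_OE and 8.42 and 5.94 CPM in control, a log2 fold change of 0.31 ± 0.30 (SE; edgeR, adjusted p = 0.788). BAG1, which links HSP70 to the proteasome, had 51.3 and 34.5 CPM in U1_OE and 50.4 and 40.5 CPM in control, a log2 fold change of -0.08. All 3 overlapped between the groups, as did their sum of 157 and 155 CPM in U1_OE and 169 and 135 CPM in control.

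In TMM-scaled CPM, the CCT chaperonin was the role group in which every member, 7 of 7, had both U1_OE libraries above both controls. That compares with 19.7% of all genes and 25% of those at 10 CPM or more. With library size as the only scaling TCP1 overlapped between the groups. The summed level of the 7 subunits was 1146 and 1309 CPM in U1_OE and 1001 and 866 CPM in control, a ratio of means of 1.31, and the median log2 fold change was 0.41. None was called by any of the tests. The mesenchymal markers had a median of 0.42 in the same comparison, and their part in the CCT values was not tested.

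CCT5, the epsilon subunit (chromosome 5, 10249921 to 10266412, GENCODE v29 on GRCh38), had 200.5 and 239.6 CPM in U1_OE, against 162 and 136 CPM in control. Its log2 fold change was 0.57 ± 0.17 (SE), with adjusted p = 0.489 by edgeR's quasi-likelihood test and adjusted p = 0.172 by DESeq2. CCT7, the eta subunit, had 214 and 219.8 CPM in U1_OE, against 168 and 154 CPM in control, with a log2 fold change of 0.43 ± 0.13 (SE; edgeR, adjusted p = 0.492). The replicates of CCT7 were close to each other in both groups. TCP1, the alpha subunit, had 187 and 222 CPM in U1_OE, against 185 and 167 CPM in control. U1_OE replicate 1 and control replicate 1 were level for TCP1, and its log2 fold change was the smallest of the 7, at 0.22 ± 0.15 (SE; edgeR, adjusted p = 0.717). Exons of TCP1 overlap those of ACAT2 on the other strand, and the labels give no step that marks the strand.

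The other subunits were beta, CCT2, with 116 and 135 CPM in U1_OE and 102 and 86.1 CPM in control, and gamma, CCT3, with 182 and 216 CPM in U1_OE and 161 and 136 CPM in control. The delta subunit CCT4 had 112 and 122 CPM in U1_OE and 97.8 and 83.9 CPM in control, and the theta subunit CCT8 had 134 and 155 CPM in U1_OE and 126 and 104 CPM in control. Their log2 fold changes were 0.34 to 0.42, and in each of the 7 subunits U1_OE replicate 2 was the highest library and control replicate 2 the lowest. The zeta subunit CCT6A, which was not among the 43, had 131 and 156 CPM in U1_OE and 132 and 111 CPM in control, with the same order of the outer libraries but with overlap (log2 fold change 0.24).

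The subunits occupy fixed places in the CCT ring, so their levels were also set against each other per kilobase. CCT7 was the highest and CCT4 the lowest of the 7 in every library, and the highest was 2.50 and 2.38 times the lowest in U1_OE and 2.26 and 2.41 times in control. The median subunit was at 67.1 and 77.5 CPM per kilobase in U1_OE and 62.7 and 51.8 in control. The order at both ends was thus the same in both groups, while the level of the set was apart. TUBB3, a tubulin and so of a family folded by CCT, had 264 and 338 CPM in U1_OE and 159 and 104 CPM in control, with the same highest and lowest library as the CCT subunits, and whether these are linked was not tested.

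**Figure D3:**
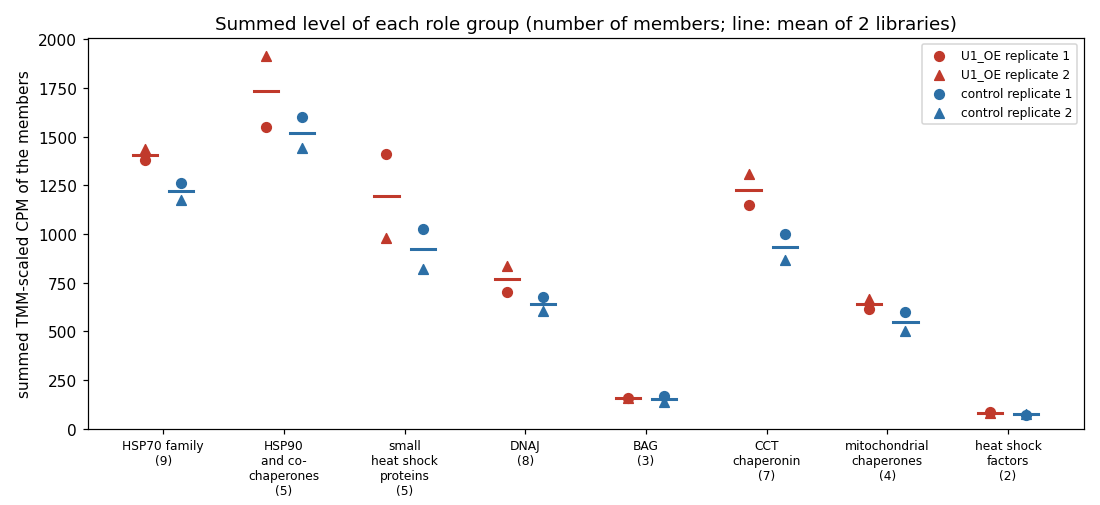
Summed TMM-scaled CPM (vertical axis, from 0) of the members of each role group in each library, with lines at the mean of the 2 libraries, red for U1_OE left of blue for control. The CCT sums of 1146 and 1309 CPM in U1_OE lie above those of 1001 and 866 CPM in control, while the HSP90, small heat shock protein and BAG sums overlap.

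The mitochondrial chaperones all had positive log2 fold changes, with a median of 0.15. Only in HSPD1, 1 of 4, was U1_OE higher without overlap, against 19.7% of all genes and 25% of those at 10 CPM or more. HSPD1 (HSP60) and HSPE1 (HSP10) form the folding chamber of the mitochondrial matrix and are transcribed head to head on chromosome 2, with RefSeq starts of HSPD1 at 197500274 and 197499840 on the minus strand and of HSPE1 at 197500379 on the plus strand. HSPD1 had 183 and 214 CPM in U1_OE, against 159 and 143 CPM in control. Its log2 fold change was 0.40 ± 0.15 (SE), with adjusted p = 0.542 by edgeR's quasi-likelihood test. HSPE1 had 239.5 and 252 CPM in U1_OE, against 246 and 188 CPM in control, with both U1_OE libraries close to control replicate 1 and a log2 fold change of 0.18 ± 0.18 (SE; edgeR, adjusted p = 0.791). Leaving out control replicate 1 gave 0.41, and leaving out control replicate 2 gave 0.000357. Per kilobase HSPE1 was 3.38 and 3.05 times as high as HSPD1 in U1_OE and 4.01 and 3.39 times in control, so both ratios in U1_OE were below both in control, with U1_OE replicate 1 and control replicate 2 nearly equal. Exons of the pair overlap on opposite strands, and 25.6% of the stretches of 31 bases in HSPD1 occur at other loci, so the ratio also depends on the counting.

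HSPA9, or mortalin, the HSP70 of the mitochondrial matrix, had 140.2 and 152 CPM in U1_OE, against 142 and 128 CPM in control, a log2 fold change of 0.12 ± 0.14 (SE; edgeR's quasi-likelihood test, adjusted p = 0.834). TRAP1, the mitochondrial HSP90, had 49.8 and 47.8 CPM in U1_OE, against 53.0 and 41.0 CPM in control, a log2 fold change of 0.05 ± 0.17 (SE; edgeR, adjusted p = 0.952). Both overlapped between the groups. The summed level of the 4 genes was 612 and 666 CPM in U1_OE and 599 and 499.8 CPM in control, and with library size as the only scaling these sums overlapped.

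HSF1, the main heat shock factor, had 73.9 and 70.4 CPM in U1_OE, against 62.9 and 65.8 CPM in control. The replicates lay close and the groups were apart, but the difference was small, with a log2 fold change of 0.16 ± 0.12 (SE; edgeR's quasi-likelihood test, adjusted p = 0.736). HSF2, a related factor that can pair with HSF1, had a lower level per kilobase than HSF1, with 12.8 and 7.51 CPM in U1_OE, against 8.25 and 11.0 CPM in control. The U1_OE libraries lay on either side of the controls, and the log2 fold change was 0.07 ± 0.33 (SE; edgeR, adjusted p = 0.971). HSF1 is regulated mostly by release and modification of the protein, which these data do not measure. Exons of HSF1 overlap those of DGAT1 on the other strand.

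Ordered by level per kilobase over the 4 libraries, HSPB1 came first at 744 CPM per kilobase, ahead of HSPA8 at 408, HSPE1 at 243, HSP90AB1 at 229 and HSPB6 at 217. AHSA1 followed at 183 and HSP90AA1 at 145 CPM per kilobase. The inducible pair stood in the lower part of the order, HSPA1A at place 27 with 24.1 CPM per kilobase and HSPA1B at place 30 with 20.6. HSPA4L at 0.462 and HSPA2 at 0.138 CPM per kilobase closed it. Neighbours such as HSPE1, HSP90AB1 and HSPB6 overlapped over the libraries.

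No library decided that most members were positive, but the size and the leading genes moved with it. With each library left out in turn, 36 members were positive without U1_OE replicate 1, 38 without U1_OE replicate 2, 41 without control replicate 1 and 36 without control replicate 2, against 46.9%, 47.6%, 52.8% and 51.9% of all genes in those fits. In 29 members the log2 fold change was positive in all 4 of these fits. The fits share libraries, and the share of all genes positive in all 4 was not taken. The median of the CCT subunits lay between 0.29 and 0.52, that of the small heat shock proteins between 0.26 and 0.82 and that of the HSP70 family between 0.13 and 0.41. The BAG and heat shock factor medians took both signs, from -0.08 to 0.25 and from -0.10 to 0.30.

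**Figure D4:**
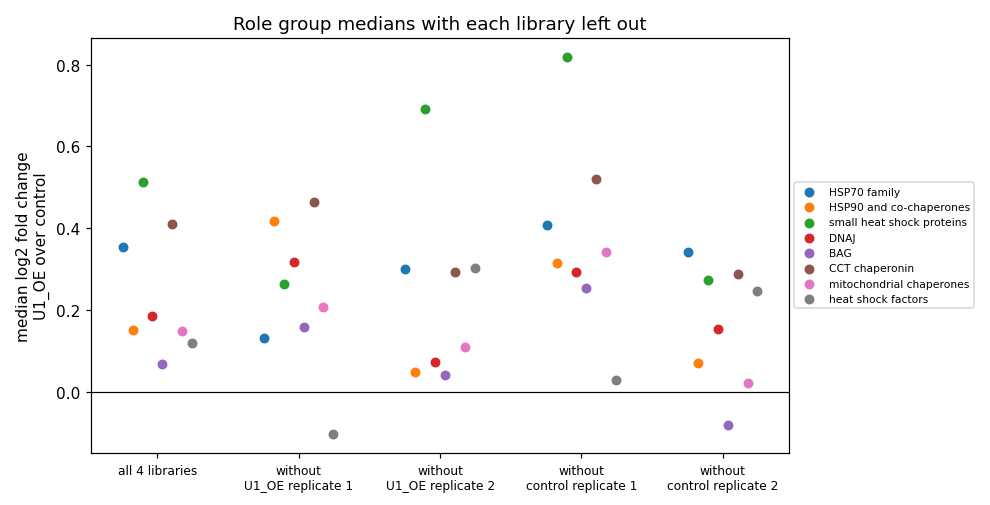
Median log2 fold change of U1_OE over control (vertical axis) of each role group, as colored points, with all 4 libraries and with each library left out (horizontal axis). The CCT median stays between 0.29 and 0.52, while the BAG and heat shock factor medians lie on either side of 0.

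Genes of the same network outside the 43 had values of both signs. Of 77 further chaperone and co-chaperone genes with a row, 74 were tested and 0 called by edgeR's quasi-likelihood test or by DESeq2. Positive log2 fold changes were found in 52 and negative ones in 22, with a median of 0.12, and the groups did not overlap in 22 with U1_OE higher and 12 with U1_OE lower, against 19.7% and 22.1% of all genes. Without adjustment 8 had p below 0.05 with U1_OE higher and 4 with U1_OE lower, against 4.36% and 4.72% of all genes.

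Prefoldin, which delivers actin and tubulin to CCT, and the further CCT genes made up a list of 10. Of these 9 were positive, with a median log2 fold change of 0.27. In 6 both U1_OE libraries were above both controls, against 19.7% of all genes and 25% of those at 10 CPM or more. VBP1, a prefoldin subunit, had the smallest p of this list, with 49.4 and 46.0 CPM in U1_OE and 35.5 and 33.6 CPM in control, a log2 fold change of 0.46 ± 0.13 (SE; edgeR's quasi-likelihood test, adjusted p = 0.481). PDCL, a phosducin-like cofactor of CCT, was the negative member, with 12.4 and 11.9 CPM in U1_OE and 13.8 and 14.7 CPM in control. Of 16 other mitochondrial chaperones and proteases 14 were positive, with a median of 0.20, and DNAJC15, a J protein of the inner membrane, had 13.8 and 12.3 CPM in U1_OE and 8.84 and 8.13 CPM in control (log2 fold change 0.62; edgeR, adjusted p = 0.492).

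The remaining lists held both signs. Other HSP90 co-chaperones had 8 of 14 positive, with a median of 0.07, and their smallest p belonged to FKBP5, a glucocorticoid-induced co-chaperone of steroid receptors, with 26.7 and 18.4 CPM in U1_OE and 35.9 and 46.1 CPM in control. Its log2 fold change was -0.86 ± 0.24 (SE; edgeR's quasi-likelihood test, adjusted p = 0.481), opposite in sign to STIP1 and AHSA1. In 4 of the 14 both U1_OE libraries were above both controls and in 4 both were below, against 19.7% and 22.1% of all genes. Other J proteins had 8 of 13 positive, with a median of 0.03, and DNAJC17 had 29.05 and 30.0 CPM in U1_OE and 33.7 and 35.2 CPM in control (log2 fold change -0.22). Other HSP70 relatives and exchange factors had 6 of 7 positive, with a median of 0.15, and ST13, the HSP70-interacting protein Hip, had 211 and 230.1 CPM in U1_OE and 197 and 193 CPM in control (log2 fold change 0.18). Of the 2 tested further small heat shock proteins, CRYAA, known from the lens, had 42.9 and 33.2 CPM in U1_OE and 7.05 and 24.7 CPM in control (log2 fold change 1.26; edgeR, adjusted p = 0.597).

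Regulators and further targets of the heat shock factors had 6 of 12 positive, with a median log2 fold change of -0.02. HMOX1, heme oxygenase, which responds to heat and more to oxidants, had 38.0 and 37.0 CPM in U1_OE and 65.0 and 50.3 CPM in control. Both U1_OE libraries were below both controls, with a log2 fold change of -0.62 ± 0.17 (SE; edgeR's quasi-likelihood test, adjusted p = 0.470).

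Assignment of reads limits some members more than others. At or above 15% of their stretches of 31 bases occur at other loci in 6 members, which are HSPA1A, HSPA1B, HSP90AB1, HSP90AA1, HSPD1 and HSPA8, and under 5% in 24. Genes whose span overlaps the member were left out of these counts. Of the stretches in HSPA14, 16.5% also occur in an overlapping gene of the same name. Of those in HSPA1B, 35.8% also occur in the overlapping gene AL671762.1. Near-identical pseudogene copies were not analysed here. An exon of another gene with a row overlaps 16 members, in 15 of them on the opposite strand.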

How the data were processed

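The authors deposited estimated counts per gene, not normalised. Per the submitters' processing notes, Trim Galore, STAR, featureCounts and DESeq2 were used with the hg38 build and without versions. Only 1.991% of values above 0 lie within 0.01 of a whole number, and no label or header says how the fractions arose. If reads were shared out among loci, the levels of near-copies such as HSPA1A and HSPA1B rest on how that was done. Values were rounded to whole numbers, filtered with filterByExpr, scaled with TMM and compared in edgeR 4.0.16 under R 4.3.3 (quasi-likelihood test, two-sided, Benjamini-Hochberg adjustment over 17317 genes, threshold 0.05). Standard errors were worked back from the fold change and F statistic. Alternatives used DESeq2 1.42.0, limma 3.58.1, other scalings and filters, and each library left out. Levels per kilobase use GENCODE v29 principal transcript lengths.

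Nothing in the labels says that libraries came from separate cultures, so the spread behind each p-value may be technical. The members and lists were chosen with earlier results of these data known. Values in every library were required for members picked by role and, per list, for the gene with the smallest unadjusted p; the other members were added. Transposable elements and mitochondrial transcripts were left out.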

Additional observations from a re-analysis of the deposited data

How the results depend on the processing

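The count of called members was 0 under every setting run. The number of genes called over the whole table was 0 by edgeR's quasi-likelihood test, 189 by DESeq2, 325 by edgeR's likelihood ratio test and 55 to 322 by DESeq2 with each library left out (145 without U1_OE replicate 1, 322 without U1_OE replicate 2, 55 without control replicate 1 and 63 without control replicate 2). The labels do not say whether a replicate number marks a shared culture or day. Deviations of same-numbered libraries correlated at -0.03771 over all tested genes. That value cannot decide it, because it can miss a pairing that shows in few genes. Some muscle markers differed with the replicate number in the same direction in both groups, and others did not. ACTC1 had 0.392 and 16.8 CPM in U1_OE and 0.177 and 26.9 CPM in control. MYH3 had 0.299 and 8.12 CPM in U1_OE and 0.153 and 10.6 CPM in control. TAGLN went opposite ways, with 197 and 401 CPM in U1_OE and 114 and 40.4 CPM in control. Whether a number marks a shared culture was not tested. With a replicate block, edgeR's quasi-likelihood test called 0 genes and 0 members, with 40 members positive and a median of 0.21, and DESeq2 called 80 genes.

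The members' median log2 fold change of 0.22 was 0.23 with RLE size factors or DESeq2, 0.19 with library size alone, 0.21 by limma-voom and 0.20 to 0.41 with each library left out, and 36 to 41 members were positive. Of 599 gene values under the alternatives, 23 in 14 genes changed sign. HSPA13 was 0.00313 with RLE size factors and 0.00544 by DESeq2. The cause was not tested. With each library left out, signs changed for HSPA2 (-0.26 to 1.17), HSPA13 (-0.0881 to 0.0803), HSPA14 (-0.15 to 0.41), HSP90AA1 (-0.16 to 0.42), PTGES3 (-0.11 to 0.0525), HSPB6 (-0.44 to 0.47), HSPB8 (-0.22 to 0.40), DNAJB2 (-0.15 to 0.33), DNAJB4 (-0.25 to 0.63), DNAJC7 (-0.0809 to 0.33), BAG1 (-0.39 to 0.17), BAG3 (-0.0805 to 0.25), TRAP1 (-0.12 to 0.27) and HSF2 (-0.35 to 0.41). Role group medians then ranged from 0.29 to 0.52 for CCT, 0.26 to 0.82 for small heat shock proteins, 0.13 to 0.41 for HSP70, 0.05 to 0.42 for HSP90, 0.07 to 0.32 for DNAJ, 0.02 to 0.34 for mitochondrial chaperones, -0.08 to 0.25 for BAG and -0.10 to 0.30 for the heat shock factors.

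With 2 libraries per group an exact two-sided permutation test of a single value cannot go below 0.333. Depth gives few counts for the members of a few CPM, which are HSPA2, HSPA4L, HSPB7, DNAJB5 and BAG2.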
